A study of Homo sapiens with 9 samples.

Results

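CD44, ZEB1 and L1CAM are 3 genes of cell invasion, and they were followed here among 14812 genes measured by whole-transcript arrays in WM266-4 melanoma cells. CD44 and ZEB1 were taken because they are reported targets of the microRNA miR-199a-3p. L1CAM was chosen by its lower array signal at both doses of that microRNA in these same data, so its differences from control are described without a test. Each of the 3 genes has 1 named row on the array, and that row was used.

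WM266-4 is an established human line from a melanoma metastasis, here 1 line carrying GFP. The cells received by lipofection a miR-199a-3p mimic at 0.5 nM (3 arrays), the same mimic at 0.25 nM (3 arrays), or a control microRNA at 0.5 nM (3 arrays), and RNA was extracted after 48 h. The 0.25 nM group therefore has no control of its own dose. The labels call the samples biological triplicates of each condition, without saying which cultures they came from. Of 8 melanocyte lineage markers 7 were measured, all 7 above the median signal of all genes and with group means from 8.04 to 12.76 at 0.5 nM, 8.38 to 12.76 at 0.25 nM and 8.15 to 12.74 in control. Above the median signal were 0 of 2 measured fibroblast markers, 1 of 9 keratinocyte and epithelial markers, 1 of 3 endothelial and 1 of 3 leukocyte markers. The keratinocyte and epithelial list had median changes of -0.35 at 0.5 nM and -0.03 at 0.25 nM with arrays shifted to the same median. As deposited they were -0.26 and 0.13. The part of this list in the results was not tested.

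A microRNA guides Argonaute proteins to messenger RNAs whose untranslated parts pair with its seed, and the bound transcripts are translated less or degraded. CD44 is the main cell-surface receptor of hyaluronan and links matrix to the actin cortex. ZEB1 is a zinc-finger transcription factor that represses epithelial genes, E-cadherin foremost, and marks an invasive, poorly differentiated state in melanoma. L1CAM is an adhesion molecule of the immunoglobulin superfamily, first known from axon growth, that supports motility and invasion in several tumours.

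The sequence delivered by the mimic is shown first because its seed (bases 2 to 8, in capitals) defines which transcripts it can pair with. The mature sequences are from RefSeq (GRCh38.p14), and the 3p form is encoded at chr19:10817429-10817450 and chr1:172144554-172144575, both on the minus strand. The opposite arm of the same hairpins, miR-199a-5p, has another seed.
hsa-miR-199a-3p: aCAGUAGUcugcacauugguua
hsa-miR-199a-5p: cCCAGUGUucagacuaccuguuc
hsa-miR-3129-5p: gCAGUAGUguagagauugguuu
Of 2370 mature human microRNA names in the table, 3 share the seed of miR-199a-3p. They are miR-199a-3p itself, miR-199b-3p, whose mature sequence is identical, and miR-3129-5p, which differs outside the seed. The untranslated parts of CD44, ZEB1 and L1CAM were not used here, so no pairing site is shown for them.

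The values are log2 intensities, and each array was shifted to the same median over genes. As deposited, the gene medians were 6.26 to 6.27 at 0.5 nM and 6.31 to 6.39 at 0.25 nM, against 6.18 in control, so the shift moves every change of a mimic group downwards. For the 3 genes the change at each dose and the dose difference are given on both scales. All 3 replicates had exactly equal values in 48.6% of rows at 0.5 nM, 42.0% at 0.25 nM and 47.8% in control, while arrays of different groups had 0 equal values. A test that rests on the spread within groups therefore gives p-values that are too small. That array-level limma test called 63.0% of all genes for 0.5 nM against control, 64.1% for 0.25 nM against control and 62.2% for 0.5 nM against 0.25 nM. A second limma test counts each group as 1 unit and takes its error from the difference between the doses, most of it borrowed from genes of similar level. Set against control in this way, both doses together gave 18 calls, 0.122% of genes (0.0203% higher and 0.101% lower). That count depended on single arrays: it was 0 without 0.25 nM replicate 1 or 0.25 nM replicate 3, 7 without 0.5 nM replicate 1, 11 without 0.25 nM replicate 2, 31 without control replicate 1, 43 without 0.5 nM replicate 2 and 45 without 0.5 nM replicate 3.

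L1CAM was lower than control on all 6 mimic arrays. On the shifted scale its log2 signal was 9.13, 8.70 and 8.64 in replicates 1 to 3 at 0.5 nM. It was 8.59, 8.46 and 8.44 at 0.25 nM and 9.54, 9.43 and 9.43 in control. No mimic array reached the lowest control array, and the groups of the 2 doses did not overlap either, with 0.5 nM above 0.25 nM. The means were 8.83 ± 0.27 at 0.5 nM, 8.50 ± 0.082 at 0.25 nM and 9.46 ± 0.067 in control (SD, n = 3 each). Changes against control were -0.64 at 0.5 nM and -0.97 at 0.25 nM, or 0.642 and 0.511 times the control signal. As deposited, without the shift, they were -0.55 and -0.81. Of all genes, 22.3% likewise had every array of both doses below every control array and 22.6% had every one above, so such separation is common in these data. At single doses 34.8% of genes lay below control without overlap at 0.5 nM and 39.1% at 0.25 nM, and 39.2% lay above control at 0.5 nM.

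**Figure D1:**
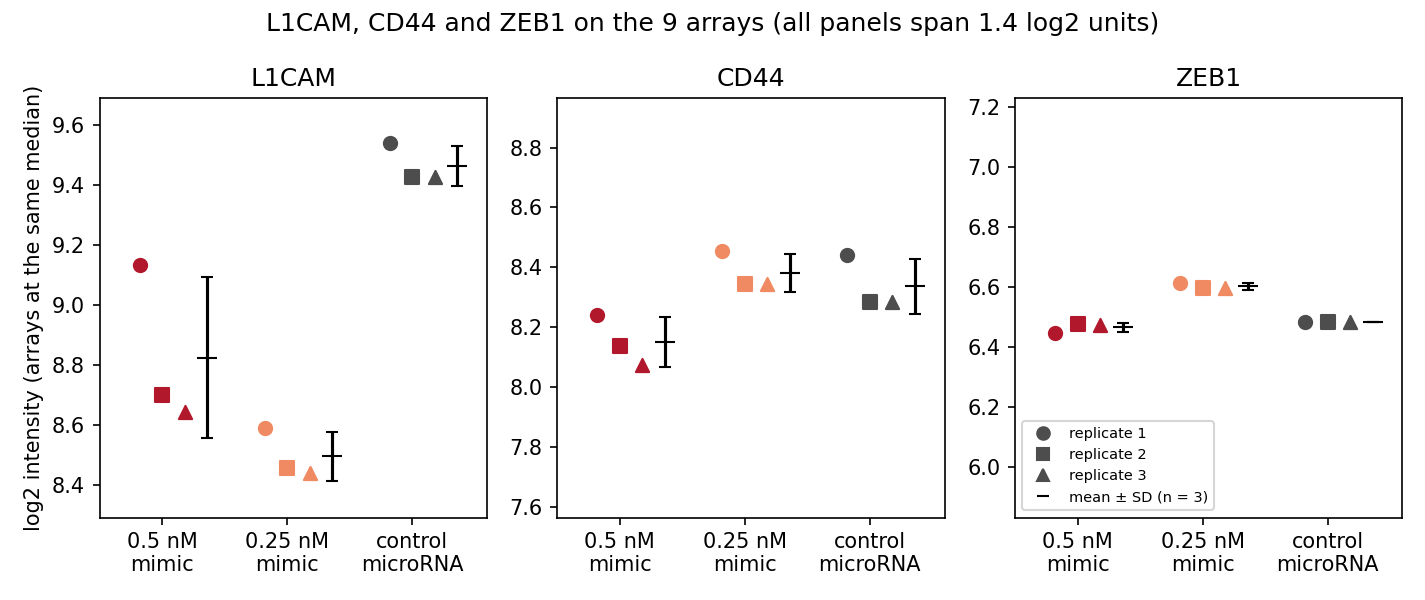
Log2 intensity of L1CAM, CD44 and ZEB1 (one panel each, vertical axis, arrays at the same median) in 0.5 nM mimic, 0.25 nM mimic and control cells. Symbols mark replicates 1 to 3, and bars are mean ± SD (n = 3). All 6 mimic arrays lie at or below 9.13 for L1CAM, against 9.43 to 9.54 in control, while the groups of CD44 and ZEB1 lie close together.

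The size of the L1CAM difference set it among the low tail of all genes. Counting from the most lowered gene, L1CAM ranked 283 of 14812 at 0.5 nM and 72 of 14812 at 0.25 nM. On the mean of the doses, -0.80, it ranked 62 of 14812, and 6 among the 7406 genes above the median signal. Changes over all genes had an SD of 0.31 at either dose. These ranks come from the contrast that chose L1CAM and only describe its place.

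The replicates of L1CAM differed most at 0.5 nM. Replicate 1 there lay 0.46 above the mean of replicates 2 and 3, against 0.14 at 0.25 nM and 0.12 in control. Set against the control array of the same number, L1CAM was at -0.41, -0.73 and -0.78 in replicates 1 to 3 at 0.5 nM. At 0.25 nM the same differences were -0.95, -0.97 and -0.98. Every difference was negative, and the 0.25 nM differences were the more even. Leaving out 0.5 nM replicate 1 moved the 0.5 nM change to -0.79, and leaving out 0.5 nM replicate 3 moved it to -0.55. The deposited values of L1CAM were 3 distinct numbers at 0.5 nM, 3 at 0.25 nM and 2 in control.

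**Figure D2:**
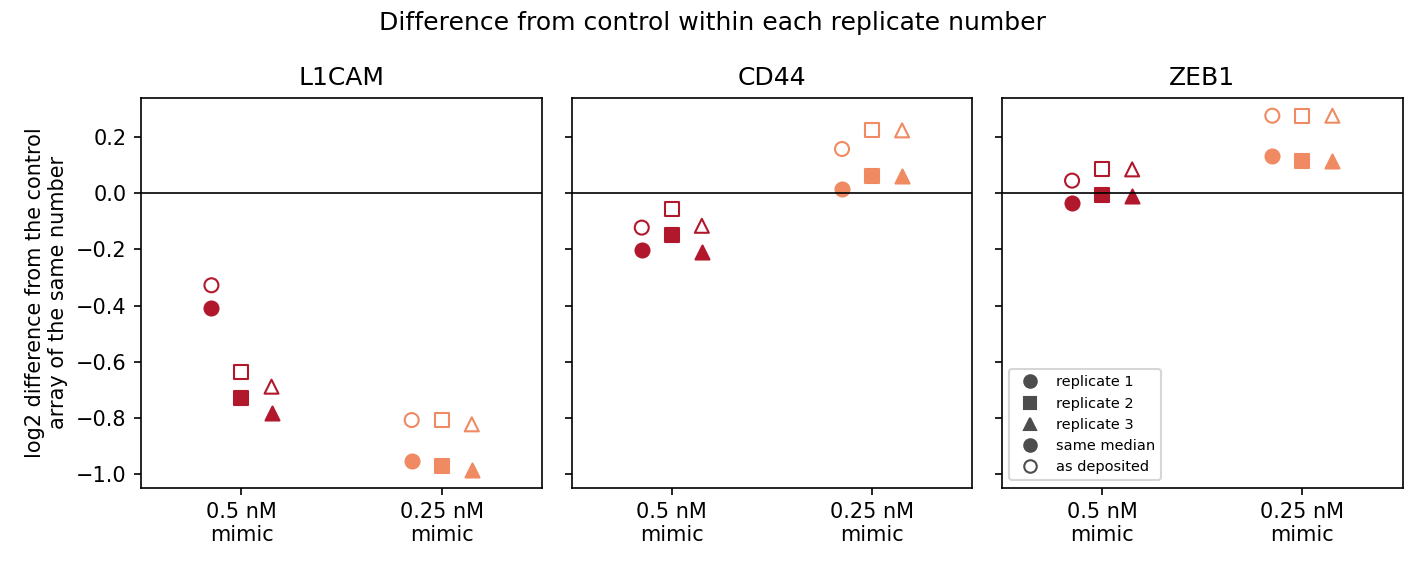
Log2 difference of each mimic array from the control array with the same replicate number (vertical axis) for L1CAM, CD44 and ZEB1 at 0.5 nM and 0.25 nM. Filled symbols use arrays at the same median and open symbols the deposited values. L1CAM is below 0 in every pair, whereas ZEB1 at 0.5 nM crosses 0 between the scales.

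Between the doses, L1CAM was higher at 0.5 nM than at 0.25 nM by 0.33 ± 0.13 (SE), which did not pass the array-level test (limma adjusted p = 0.0549). With the replicate number as a block it passed (limma adjusted p = 0.0180). It also passed without 0.5 nM replicate 1, at a difference of 0.18 (limma adjusted p = 0.0408), and without 0.5 nM replicate 3, at 0.42 (limma adjusted p = 0.0302). With replicate 1 left out of every group it passed at 0.22 (limma adjusted p = 0.00184). Of all genes 35.1% were called higher at 0.5 nM than at 0.25 nM, and 40.5% lay higher there without overlap. An absolute dose difference smaller than that of L1CAM was seen in 77.6% of genes. Without the shift the dose difference of L1CAM was 0.26. The lower dose thus had the lower L1CAM signal.

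CD44 was lower at 0.5 nM than in control by a small amount on the shifted scale, and there was not distinguished from control at 0.25 nM. Its log2 signal was 8.24, 8.14 and 8.07 at 0.5 nM, 8.46, 8.35 and 8.35 at 0.25 nM, and 8.44, 8.28 and 8.28 in control. All 3 arrays at 0.5 nM lay below all control arrays, as did those of 34.8% of all genes, while the 0.25 nM arrays overlapped control. The means were 8.15 ± 0.083 at 0.5 nM, 8.38 ± 0.063 at 0.25 nM and 8.34 ± 0.091 in control (SD, n = 3 each). Replicate 1 was the highest array of every group, by 0.13 at 0.5 nM, 0.11 at 0.25 nM and 0.16 in control over the mean of the other two.

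At 0.5 nM the CD44 change was -0.19 ± 0.061 (SE), or 0.878 times control, which passed the array-level test (limma adjusted p = 0.0304) that 63.0% of genes passed, 29.8% as lower. Against the control array of the same number it was -0.20, -0.15 and -0.21. With the replicate number as a block it kept its call (limma adjusted p = 0.000472). The call was lost without the shift, at -0.10 (limma adjusted p = 0.190), and with quantile normalization, at -0.16 (limma adjusted p = 0.0966). It was also lost without 0.5 nM replicate 2 (-0.18, limma adjusted p = 0.0785), without 0.5 nM replicate 3 (-0.15, limma adjusted p = 0.0950) and without control replicate 1 (-0.13, limma adjusted p = 0.0783). A change lower than that of CD44 was seen in 21.0% of genes.

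At 0.25 nM the CD44 change was 0.05 ± 0.061 (SE), or 1.03 times control, and did not pass (limma adjusted p = 0.545). Without the shift it was 0.20 and passed as higher (limma adjusted p = 0.0209). Over both doses the group-level change was -0.07 ± 0.15 (SE; limma adjusted p = 0.983), and it turned to 0.05 without the shift. Between the doses CD44 was lower at 0.5 nM by 0.23 ± 0.061 on the log2 scale (difference -0.23, limma adjusted p = 0.0125), a test that 62.2% of genes passed, 27.1% as lower. All 3 arrays at 0.5 nM lay below all 3 at 0.25 nM, as in 31.4% of genes. This difference passed in all 17 alternatives, from -0.30 (without the shift) to -0.19. CD44 was therefore lowest at 0.5 nM, whereas L1CAM was lowest at 0.25 nM. Where control stood for CD44 depended on the scale. With the shift, control was not distinguished from 0.25 nM. Without it, control was not distinguished from 0.5 nM (limma adjusted p = 0.190), with means of 8.16 at 0.5 nM, 8.26 in control and 8.46 at 0.25 nM.

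ZEB1 had a mean signal over all arrays above that of 54.5% of genes, against 80.8% for CD44 and 87.7% for L1CAM. ZEB1 differed little from control at either dose. Its log2 signal was 6.45, 6.48 and 6.47 at 0.5 nM, 6.61, 6.60 and 6.60 at 0.25 nM, and 6.48 in each control array. The deposited ZEB1 values were 1 number shared by all control arrays, 1 number shared by all 0.25 nM arrays and 2 numbers at 0.5 nM. The means were 6.46 ± 0.016 at 0.5 nM, 6.60 ± 0.011 at 0.25 nM and 6.48 ± 0 in control (SD, n = 3 each). As deposited, the SD was 0.023 at 0.5 nM, 0 at 0.25 nM and 0 in control, so these arrays give no measure of the variation of ZEB1 between cultures.

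At 0.5 nM the ZEB1 change was -0.02 ± 0.011 (SE) with the shift and did not pass (limma adjusted p = 0.218), yet without the shift it was 0.07 and passed as higher (limma adjusted p = 0.000874). With replicate 1 left out of every group it was -0.0078 and passed (limma adjusted p = 0.0232). The direction of ZEB1 at 0.5 nM therefore depended on the scale of the arrays. At 0.25 nM it was higher by 0.12 ± 0.011 (SE), or 1.09 times control (limma adjusted p = 4.52e-05, a test passed as higher by 30.3% of genes), and by 0.28 without the shift. A higher signal in every 0.25 nM array than in any control array was seen in 35.2% of genes, and 69.7% of genes had a lower change than ZEB1 at that dose.

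With groups as units, the ZEB1 change over both doses was 0.05 ± 0.21 (SE; limma adjusted p = 0.994), and 0.17 without the shift. The dose difference of ZEB1 in the array-level test, -0.14 ± 0.011 (SE; limma adjusted p = 2.14e-05), was larger in absolute size than that of 42.0% of genes. As deposited it was -0.20. All 3 arrays at 0.5 nM lay below all 3 at 0.25 nM, as they did for CD44 and for 31.4% of all genes. The array-level test between the doses was passed by 62.2% of genes, 27.1% as lower at 0.5 nM.

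**Figure D3:**
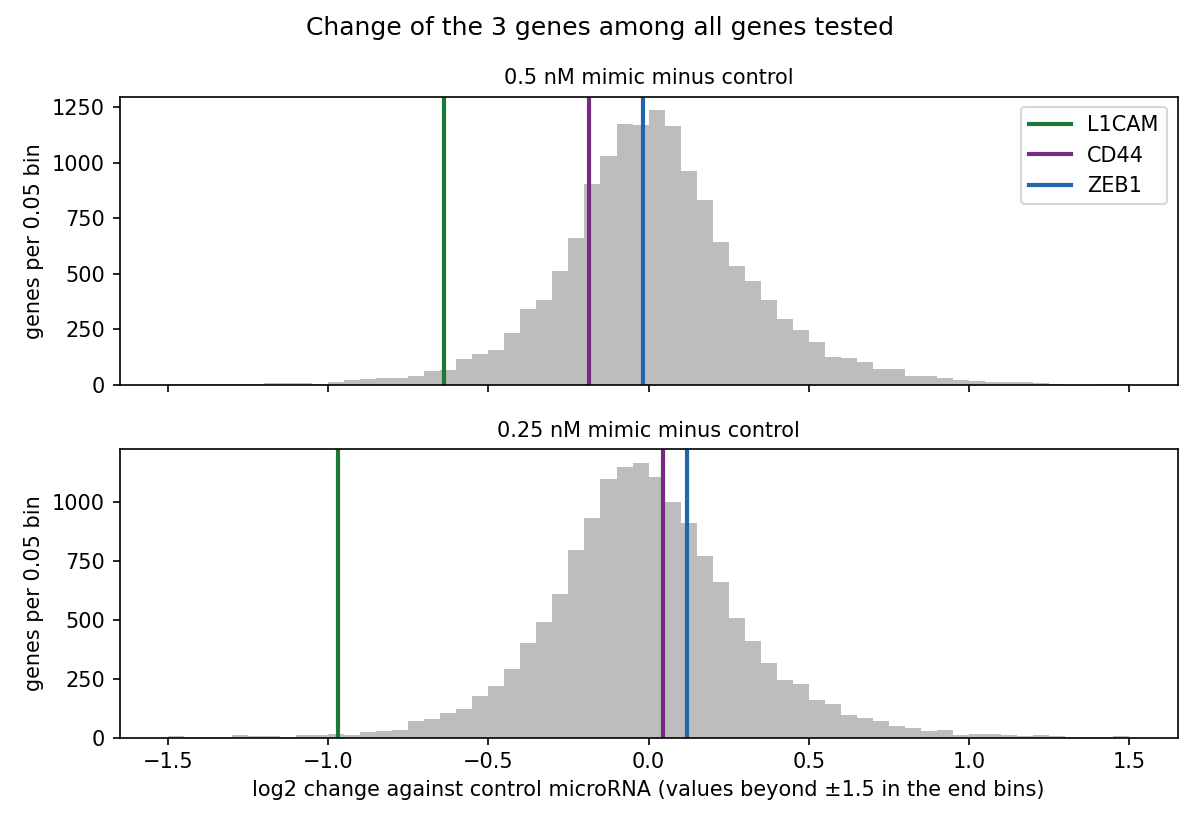
Histogram of log2 changes of 14812 genes against control (horizontal axis; vertical axis, genes per bin) at 0.5 nM and 0.25 nM, arrays at the same median. Lines mark L1CAM at -0.64 and -0.97, CD44 at -0.19 and 0.05, and ZEB1 at -0.02 and 0.12. L1CAM lies in the low tail of both panels and the other two lie within the bulk.

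The 3 genes were next set beside genes of their own pathways. The pathway lists and the cell type marker lists together held 150 measured genes other than the 3. Of these, 0 passed the group-level limma test (smallest adjusted p = 0.129), although 10 had an unadjusted p under 0.05. In the array-level test 83 passed at 0.5 nM and 91 at 0.25 nM, shares of 55.3% and 60.7% that lie near or below those of all genes. The counts that follow are from that test, which called 33.2% of all genes higher and 29.8% lower at 0.5 nM, and 30.3% higher and 33.9% lower at 0.25 nM, and the median change over all genes was 0.01 at 0.5 nM and -0.02 at 0.25 nM. Without the shift those medians were 0.10 and 0.15, so the counts and small changes of the lists depend on the scale. Both scales are given for each pathway list.

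Among the relatives and surface partners of L1CAM, 11 were measured, of which 3 were higher and 6 lower at 0.5 nM, and 5 higher and 5 lower at 0.25 nM. The list medians were -0.11 and 0.03. Without the shift 4 were higher and 5 lower at 0.5 nM, and 5 higher and 4 lower at 0.25 nM, with medians of -0.02 and 0.19. CHL1, the closest homologue of L1CAM, was lower, at -0.14 and -0.39 (limma adjusted p = 5.39e-06 and 2.29e-08), and at -0.05 and -0.23 without the shift. NRCAM, another member of the L1 family, lay at 0.19 and 0.46 and passed at 0.25 nM (limma adjusted p = 0.000944) but at 0.5 nM only with the replicate block (limma adjusted p = 0.0123, against 0.0554 without) or without the shift (0.28, limma adjusted p = 0.0207). L1CAM thus shared its sign with CHL1 and not with NRCAM. NFASC, a further family member below the median signal, named here after its values were seen, was lower. It lay at -0.11 and -0.19 (limma adjusted p = 3.06e-05 and 1.02e-06), but only at -0.02 and -0.03 without the shift. Inside the cell, 9 partners and traffic proteins of L1CAM were measured, with 2 higher and 1 lower at 0.5 nM and 3 higher and 1 lower at 0.25 nM (medians 0.01 and -0.03). Without the shift 4 were higher and 0 lower at either dose (medians 0.10 and 0.13). EZR, the linker ezrin that binds the tails of both L1CAM and CD44, was at 0.15 and 0.13 (limma adjusted p = 0.0101 and 0.0216).

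Of the proteases that shed L1CAM and CD44, ADAM10, which cuts both at the cell surface, was lower, at -0.15 and -0.37, the second from 2 arrays at 0.25 nM (limma adjusted p = 0.00363 and 9.21e-05). Without the shift it was at -0.07, which did not pass (limma adjusted p = 0.150), and at -0.21 (limma adjusted p = 0.00401). MMP14, a membrane-bound matrix protease that also cuts CD44, was at -0.25 and -0.18 (limma adjusted p = 1.05e-05 and 7.24e-05), but at 0.25 nM its change without the shift was -0.02 and did not pass (limma adjusted p = 0.324). ADAM17, the other main sheddase, named here after its values were seen, lay at -0.05 and 0.0065 (limma adjusted p = 0.244 and 0.891). Of 14 measured ligands, partners and proteases of CD44, 4 were higher and 2 lower at 0.5 nM, and 1 higher and 3 lower at 0.25 nM, with medians of -0.01 and -0.07. Without the shift 5 were higher and 1 lower at 0.5 nM, and 6 higher and 1 lower at 0.25 nM, with medians of 0.07 and 0.09.

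Around CD44, 12 other genes of hyaluronan metabolism and binding were measured. At 0.5 nM 4 were higher and 2 lower, and at 0.25 nM 3 were higher and 0 lower, with medians of 0.16 and 0.11. Without the shift 4 were higher and 2 lower, and 7 higher and 0 lower, with medians of 0.24 and 0.26. HAS2, the main hyaluronan synthase of mesenchymal cells, had the largest change of the list among genes above the median signal. It averaged 8.47 ± 0.11 at 0.5 nM, 8.52 ± 0.15 at 0.25 nM and 7.91 ± 0.012 in control (SD, n = 3 each). The changes were 0.56 and 0.61 (limma adjusted p = 0.000690 and 0.000413), and the group-level test did not pass (limma adjusted p = 0.129). CD44 and the enzyme that makes its ligand therefore did not share a direction at 0.5 nM.

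Around ZEB1, 11 other transcription factors of the epithelial-mesenchymal transition were measured, with 4 higher and 4 lower at 0.5 nM and 6 higher and 3 lower at 0.25 nM (medians -0.01 and 0.19). Without the shift 5 were higher and 1 lower, and 9 higher and 2 lower (medians 0.08 and 0.35). ZEB2, the paralogue that in melanocytes marks the differentiated state, was higher, at 0.38 and 0.25 (limma adjusted p = 2.43e-08 and 2.06e-07). E-cadherin (CDH1) was listed among the epithelial genes that ZEB1 represses but was not measured. Of 15 such genes that were measured, 6 were higher and 4 lower at 0.5 nM, and 5 higher and 7 lower at 0.25 nM. Their medians were -0.01 and -0.09, but only 2 had a signal above the median. Without the shift 8 were higher and 3 lower, and 7 higher and 3 lower, with medians of 0.08 and 0.07. One of them, PATJ, a polarity protein, was at 0.23 and 0.29 (limma adjusted p = 0.000631 and 0.000186), and ESRP1, a splicing regulator that also sets CD44 isoforms, was at -0.01 and -0.09 (limma adjusted p = 0.950 and 0.485). Of 13 measured cofactors of ZEB1, 2 were higher and 4 lower at 0.5 nM, and 2 higher and 8 lower at 0.25 nM, with medians of -0.03 and -0.16. That leaning towards lower cofactors was not seen without the shift. There 5 were higher and 0 lower at 0.5 nM, and 5 higher and 3 lower at 0.25 nM, with medians of 0.06 and -0.0057. The corepressor CTBP1 lay at 0.10 and -0.53 (limma adjusted p = 0.118 and 4.30e-05), and at 0.19 and -0.37 without the shift, where both passed (limma adjusted p = 0.0201 and 0.000730). Of 6 measured mesenchymal genes, 2 were higher and 1 lower at 0.5 nM, and 2 higher and 2 lower at 0.25 nM, with medians of 0.04 and -0.13. Without the shift 3 were higher and 1 lower, and 3 higher and 0 lower, with medians of 0.13 and 0.03.

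Among 11 measured transcriptional regulators of CD44 or L1CAM, 4 were higher and 2 lower at 0.5 nM, and 4 higher and 1 lower at 0.25 nM. JUN, a subunit of the AP-1 factor, had the largest mean change of the doses among those above the median signal, at -0.54 and -0.70 (limma adjusted p = 0.0915 and 0.0384). With the replicate block it passed at 0.5 nM too (limma adjusted p = 0.0291), and without the shift it passed at neither dose (limma adjusted p = 0.169 and 0.104). Its SD was 0.14 at 0.5 nM, 0.38 at 0.25 nM and 0.38 in control. REST, a repressor of neuronal genes that silences L1CAM outside the nervous system, was at 0.13 and 0.17 (limma adjusted p = 0.000463 and 9.37e-05). With groups as units JUN had a limma adjusted p = 0.163 and REST 0.966. The list medians were 0.05 and 0.05. Without the shift 4 were higher and 1 lower, and 5 higher and 0 lower, with medians of 0.14 and 0.21.

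**Figure D4:**
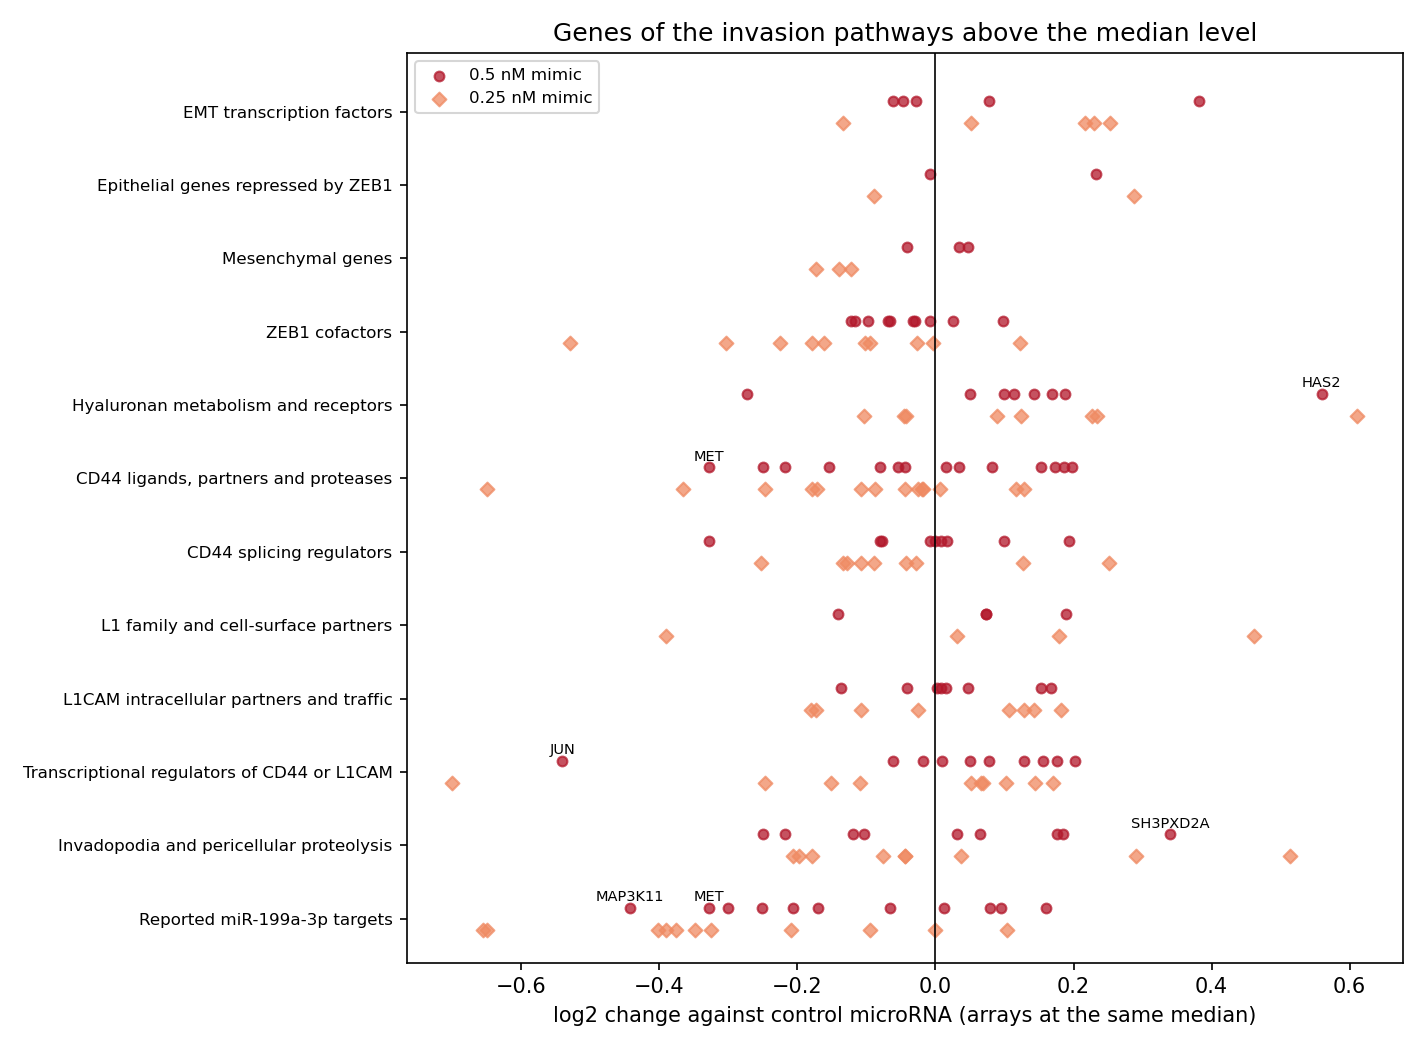
Log2 change against control (horizontal axis, arrays at the same median) of listed genes with a signal above the median, one row per list, at 0.5 nM (circles) and 0.25 nM (diamonds). The 3 followed genes are left out, and genes with a mean change of at least 0.4 in size are named. Most genes lie within 0.4 of 0, with HAS2 at 0.56 and 0.61, and JUN at -0.54 and -0.70.

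Of 13 other reported targets of miR-199a-3p that were measured, 3 were higher and 4 lower at 0.5 nM, and 3 higher and 7 lower at 0.25 nM, with medians of -0.07 and -0.33. Without the shift 6 were higher and 1 lower, and 3 higher and 3 lower, with medians of 0.02 and -0.17. MAP3K11, a kinase upstream of JNK, was the lowest of them above the median signal on the mean of the doses, at -0.44 and -0.65 (limma adjusted p = 1.21e-08 and 2.31e-09). CD44 at 0.05 and ZEB1 at 0.12 were thus above the median of the other reported targets at 0.25 nM. At 0.5 nM CD44 at -0.19 was below the median of -0.07, and ZEB1 at -0.02 was above it. These differences were not tested.

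Because ZEB1 binds the E-box CACCTG, the start-site windows of the 3 genes (300 bases around each RefSeq start, GRCh38.p14) were searched for it on both strands. ZEB1 has 7 windows in the table, of which 2 hold a match, CD44 has 1 window and L1CAM has 2, none of these 3 with a match. The motif stands in 20.6% of 35116 windows of the same length. The ZEB1 window with most matches, 3 (in capitals), lies at chr10:31318966-31319265 on the plus strand and is printed to show them.
ZEB1: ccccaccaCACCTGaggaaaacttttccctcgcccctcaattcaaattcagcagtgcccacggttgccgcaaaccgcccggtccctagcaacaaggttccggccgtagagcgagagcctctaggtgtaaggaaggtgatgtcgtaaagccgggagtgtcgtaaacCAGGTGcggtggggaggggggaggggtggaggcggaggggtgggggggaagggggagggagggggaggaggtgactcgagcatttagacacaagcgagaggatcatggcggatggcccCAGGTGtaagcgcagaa
A match is a description of the letters in this window, and no binding was measured.

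The genes most like each of the 3 across arrays were named by Pearson correlation over the 8 or 9 arrays with values, among genes above the median signal with an SD of at least 0.1. L1CAM was followed most closely by DMAC2 (r = 0.994, 8 arrays), CHMP2A (r = 0.993, 8 arrays) and ERO1A (r = 0.991, 9 arrays). CD44 was followed by THOC1 (r = 0.982), PNRC1 (r = 0.969) and GARS1 (r = 0.956), and ZEB1 by PIDD1, CDK13 and TAPBPL (r = 0.990, 0.990 and 0.988). Of these 9 genes, DMAC2 came nearest to the size of the L1CAM change, at -0.51 and -0.76. Many rows had exactly equal values in all arrays of a group, and no label says whether the groups were summarised apart. These correlations can therefore rest largely on 3 group levels and are given without a test.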

How the data were processed

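The authors deposited 1 table of log2 intensities with 44629 rows and 9 columns, 1 per array. Per the submitters' processing notes oligo, affy and RMA were used; for versions and build, nothing is stated: not given in the sources used here. The platform annotation gives 1 symbol to 15835 rows, and the brightest row per symbol left 14812 genes. In replicate 3 of 0.25 nM no value has 0 as first decimal, against 4178 to 4774 in the other columns, and 2351 of 2695 comparable rows match once those zeros are dropped; values under 10 digits there were left out (19.1% of genes). CD44, ZEB1 and L1CAM keep all 9 values.

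Tests used limma 3.58.1 in R 4.3.3, two-sided, adjusting p by Benjamini-Hochberg across 14812 genes (threshold 0.05): an array-level model with a mean per group, and a group-level model on 3 group means with an intensity trend. Both were run on simulated data with known changes. That simulation held no exactly equal replicate values, unlike these arrays, so it does not vouch for the p-values here. The 3 genes and the lists were chosen with earlier results of these data known. Named list genes are, per list, the up to 4 above the median signal with the largest mean change of the doses, any list gene called at group level (0 were), and the 3 genes most like each of the 3 across arrays. Replicate numbers were taken to pair the arrays in the matched differences and the replicate block, while the main array-level model had no replicate term. Deviations of same-numbered arrays correlated at 0.49 to 0.59 for replicate 1, 0.28 to 0.35 for replicate 2 and 0.14 to 0.28 for replicate 3. However, replicates 2 and 3 of different groups correlated as well (0.16 to 0.36). Arrays carry no depth, so their number limits the precision.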

Additional observations from a re-analysis of the deposited data

Results flagged for a closer look

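The changes of CD44 and ZEB1 against the shared control differed between the doses by the array-level test of the difference itself. For CD44 the change at 0.5 nM minus that at 0.25 nM was -0.23 (limma adjusted p = 0.0125), and for ZEB1 it was -0.14 (limma adjusted p = 2.14e-05). Of all genes 62.2% passed the same test, 27.1% with the lower signal at 0.5 nM.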

How the results depend on the processing

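Beside a replicate block, normalization, filters and leaving out arrays, replicate 1 was left out of every group at once, an alternative chosen after seeing the data. The L1CAM changes kept their sign in all 17 alternatives, at -0.79 to -0.55 for 0.5 nM and -1.02 to -0.81 for 0.25 nM. The L1CAM dose difference of 0.33 passed with the replicate block (limma adjusted p = 0.0180) and ranged from 0.18 to 0.42 with arrays left out. CD44 at 0.5 nM ranged from -0.23 to -0.13 with arrays left out, and lost its call without the shift (-0.10) and with quantile normalization (-0.16); at 0.25 nM it passed at 0.20 without the shift. Its group-level change turned to 0.052 without the shift. ZEB1 at 0.5 nM turned to 0.072 without the shift and ranged from -0.022 to -0.0078 with arrays left out. The cause of these losses was not tested. With only genes above the median signal (7406 genes) the array-level counts were 3763 at 0.5 nM (50.8%, 1699 higher and 2064 lower), 3931 at 0.25 nM (53.1%) and 3624 between the doses (48.9%), lower shares than over all genes. Without the shift the calls at 0.5 nM were 6663 higher and 2975 lower, against 4918 and 4418 with it, and at 0.25 nM 7516 and 2531, against 4483 and 5015; between the doses they were 3961 and 5321, against 5196 and 4015. With quantile normalization they were 4546 and 4489, 4607 and 4495, and 4434 and 4471. The group-level count of 18 became 0 without the shift, with quantile normalization and without the intensity trend, 35 with dropped digits kept, 39 with the mean of all rows of a symbol, and 0 to 45 with arrays left out. Of the 50 named list genes, 27 passed the array-level test at 0.5 nM and 30 at 0.25 nM. Under alternatives chosen after seeing the data, the first lost 3 and gained 4 without the shift, lost 2 and gained 1 with quantile normalization, and lost 0 and gained 8 with the replicate block. At 0.25 nM these were 8 and 7, 4 and 4, and 1 and 12. At group level JUN passed at -0.83 (limma adjusted p = 0.0106) with 1 array left out. The replicate block changed no other call of the 3 genes.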

Other observations

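Invadopodia, the protrusions through which invasive cells digest matrix, were described by 10 measured genes of their scaffold and proteases. At 0.5 nM 3 were higher and 2 lower, and at 0.25 nM 3 were higher and 2 lower, with medians of 0.05 and -0.04. Without the shift 3 were higher and 1 lower, and 3 higher and 0 lower, with medians of 0.14 and 0.11. The scaffolds SH3PXD2A and SH3PXD2B were higher, SH3PXD2A at 0.34 and 0.51 (limma adjusted p = 0.00737 and 0.000882) and SH3PXD2B at 0.18 and 0.29 (limma adjusted p = 0.00884 and 0.000668). TIMP3, an inhibitor of matrix proteases, was at -0.12 and -0.21 (limma adjusted p = 0.184 and 0.0365), but at -0.03 and -0.05 without the shift, where neither passed (limma adjusted p = 0.728 and 0.554). None of them passed the group-level limma test, in which 10 list genes had an unadjusted p under 0.05.

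Regulators that set CD44 splice forms were mixed: of 10 measured, 2 were higher and 1 lower at 0.5 nM, and 2 higher and 3 lower at 0.25 nM, with medians of -0.0044 and -0.10. Without the shift 4 were higher and 0 lower, and 3 higher and 0 lower, with medians of 0.08 and 0.06. SRRM1, a splicing coactivator, was at 0.10 and 0.25 (limma adjusted p = 0.00209 and 1.06e-05). Only 1 row was named for CD44, so its isoforms were not resolved here.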
